A study of Mus musculus with 12 samples.

Results

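The genes examined were 9 interferon-inducible GTPases, out of 40853 gene symbols measured by RNA sequencing in microglia and astrocytes. They were chosen by symbol: the guanylate binding proteins Gbp2, Gbp3, Gbp4, Gbp6 and Gbp7, and the immunity-related GTPases Igtp, Irgm1, Irgm2 and Iigp1. Both cell types were sorted by flow cytometry from dissociated whole brain of mice aged 8 to 9 weeks. All animals had received 1 mg/kg lipopolysaccharide (LPS, the endotoxin of Gram-negative bacteria) intraperitoneally 20 h before dissection, so LPS was common to every group and untreated animals were not analysed here. The 4 groups were WT microglia, KO microglia, WT astrocytes and KO astrocytes, where KO is a knockout of Kpna4, the gene of a nuclear import receptor of the importin alpha family. The labels' animal numbers give 3 WT and 3 KO animals, each with 1 microglia and 1 astrocyte library, so each group had 3 libraries from separate animals. The sources used here do not say whether the knockout is constitutive or limited to a cell type.

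Guanylate binding proteins (GBPs) and immunity-related GTPases (IRGs) are large GTPases made by cells exposed to interferons. GBPs assemble on bacteria and on the membranes of pathogen vacuoles, where they help to open the vacuole and to bring LPS to caspase-11, the intracellular LPS sensor encoded by Casp4. IRGs fall into effectors such as Iigp1, which coat and disrupt vacuoles, and regulators such as Irgm1, Irgm2 and Igtp, which hold the effectors inactive on the cell's own membranes. Interferons switch their genes on through promoter elements called gamma-activated sites (GAS) and interferon-stimulated response elements (ISRE), the latter bound by IRF1 and by complexes that hold STAT2 and IRF9.

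The promoters of 6 of the 9 genes were found in the RefSeq promoter table of assembly GRCm38.p6, and Gbp4, Gbp6 and Iigp1 were not matched. The first listed promoter of each gene is shown because an ISRE-like stretch lay within 64 bases of the annotated start in each of them. Each line holds 110 bases, 5′ to 3′ on the gene's own strand. Capitals mark matches to an ISRE-like motif (TTTC, any 2 bases, TTTC, or on the other strand GAAA, any 2 bases, GAAA) or a GAS-like motif (TTC, any 3 bases, GAA, the same on both strands), and overlapping matches run together.
Gbp2, chr3:142620553-142620662, plus strand: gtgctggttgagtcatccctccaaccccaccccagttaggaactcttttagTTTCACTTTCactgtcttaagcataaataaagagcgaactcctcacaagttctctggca
Gbp3, chr3:142559934-142560043, plus strand: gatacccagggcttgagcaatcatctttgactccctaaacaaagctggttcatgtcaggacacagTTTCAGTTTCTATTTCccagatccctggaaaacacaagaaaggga
Gbp7, chr3:142530226-142530335, plus strand: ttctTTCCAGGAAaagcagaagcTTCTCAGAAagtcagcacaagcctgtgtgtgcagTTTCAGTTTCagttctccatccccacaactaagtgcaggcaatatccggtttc
Igtp, chr11:58199446-58199555, plus strand: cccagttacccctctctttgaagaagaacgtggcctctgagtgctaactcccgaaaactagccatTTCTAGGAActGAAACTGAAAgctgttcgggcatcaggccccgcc
Irgm1, chr11:48871421-48871530, minus strand: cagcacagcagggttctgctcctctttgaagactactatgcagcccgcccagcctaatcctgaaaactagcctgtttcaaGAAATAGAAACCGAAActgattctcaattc
Irgm2, chr11:58214867-58214976, plus strand: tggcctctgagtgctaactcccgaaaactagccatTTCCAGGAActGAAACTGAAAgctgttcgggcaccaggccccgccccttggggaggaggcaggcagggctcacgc

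Within the 250 bases before the annotated start, all 6 promoters held the ISRE-like letters, against 978 of 32851 promoter windows of that length in the table, or 2.98%. Members were counted by the first listed window of each gene, whereas the background counts every window. A further listed window of Gbp3 held neither motif. The first base of the match lay 59 bases before the start in Gbp2, 53 in Gbp7, 34 in Igtp and 64 in Irgm2. Gbp3 held overlapping matches beginning 45 and 39 bases before the start, and Irgm1 held overlapping matches beginning at 30 and 24. The GAS-like letters were found in 3 of the 6 promoters, against 2306 windows or 7.02% of all: in Gbp7 they began 106 and 87 bases before the start, in Igtp 45 and in Irgm2 75. Igtp and Irgm2 carried both motifs in the same arrangement, and their promoters were identical at 96 of 104 aligned bases (92.3%). Among the 9 other family genes with a promoter in the table, 5 held the ISRE-like and 4 the GAS-like letters. These matches describe letters only, and binding was not measured.

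**Figure D1:**
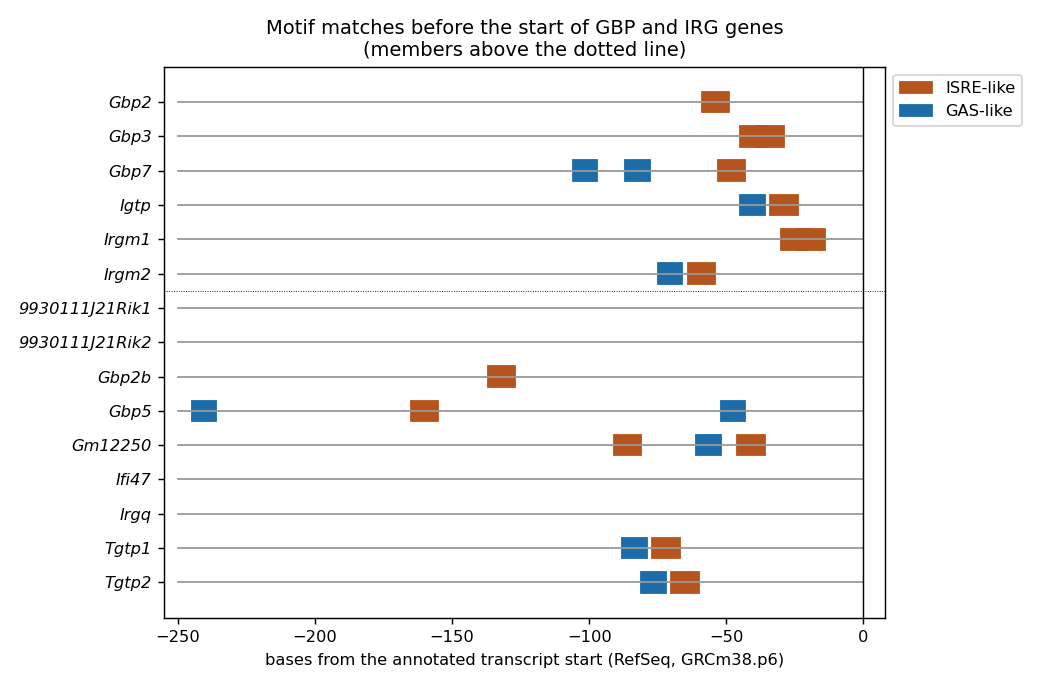
Positions of ISRE-like and GAS-like letters in the 250 bases before the annotated transcript start (horizontal axis, bases) of 6 members, above the dotted line, and 9 other genes of the families. In the first listed window, all 6 members hold an ISRE-like match, which begins between 24 and 64 bases before the start.

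Library totals ran from 10319842 to 14520453 estimated counts in microglia and from 10744794 to 15575662 in astrocytes. All 8 microglial and all 8 astrocyte marker genes were detected in every library of their own cell type. The summed microglial markers were at 12696 to 16226 CPM (counts scaled to a library total of 1000000) in microglia and at 196 to 555 CPM in astrocyte libraries. Astrocyte markers were at 16014 to 21338 CPM in astrocytes and 324 to 729 CPM in microglia. A group of 8 abundant non-coding RNAs took 11.8% to 15.4% of microglia counts and 26.2% to 39.5% of astrocyte counts, which lowers the astrocyte CPM of all other genes; the fold changes use TMM factors, which scale the libraries to the bulk of their genes. Kpna4 transcript was at 67.9 to 96.4 CPM in WT and 59.8 to 78.6 CPM in KO microglia, and at 40.1 to 57.6 CPM in WT and 43.8 to 80.2 CPM in KO astrocytes. WT and KO libraries overlapped, and which exons were deleted is not stated, so the genotype labels could not be checked from the transcript. KO below means libraries labelled KO.

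All 9 genes had counts in all 12 libraries. Per kilobase of exon in the basic gene annotation, a scale that allows for gene length, Gbp7 was the highest member in WT microglia at 41.6 ± 4.68 CPM per kb (SD, n = 3). It was followed by Irgm1 at 32.8 ± 5.13, Gbp3 at 29.7 ± 1.84 and Igtp at 28.8 ± 4.92 CPM per kb, and the mean ± SD ranges of neighbours in this order overlapped among these 4 genes. Irgm2 was at 17.4 ± 4.44 and Gbp2 at 11.5 ± 1.82 CPM per kb, while Gbp6 at 3.92 ± 0.295, Iigp1 at 2.02 ± 0.715 and Gbp4 at 1.00 ± 0.502 CPM per kb were the lowest. The order differed in WT astrocytes. There Gbp6 at 29.5 ± 13.3 and Gbp3 at 28.4 ± 4.32 CPM per kb came first, with Gbp2 at 18.7 ± 8.27, Irgm1 at 17.5 ± 1.42 and Igtp at 16.8 ± 1.41 CPM per kb next, and the ranges of neighbours among these 5 genes overlapped. Irgm2 at 8.64 ± 3.61 and Gbp7 at 8.33 ± 1.57 CPM per kb followed, then Iigp1 at 4.40 ± 1.31 and Gbp4 at 1.53 ± 1.16 CPM per kb. The full transcript set holds more sequence than the basic annotation for some members. Gbp6 had 6171 different 75-base stretches there against 2604 exon bases here, and Irgm1 5807 against 2305. Gbp4 and Iigp1 also had more, as did Gbp3 (3406 against 3054) and Igtp (2089 against 2022). The per kb levels of these genes, and the order, therefore depend on the annotation used. Gbp7 made up 39.1% to 43.7% of the members' summed CPM in microglia libraries and 10.8% to 16.9% in astrocyte libraries, whereas Gbp6 made up 0.665% to 2.21% and 14.0% to 24.9%. These ranges did not overlap for either gene. The shares are of CPM not divided by length, and Gbp7 has the longest exons of the members (5.614 kb), which raises its share.

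**Figure D2:**
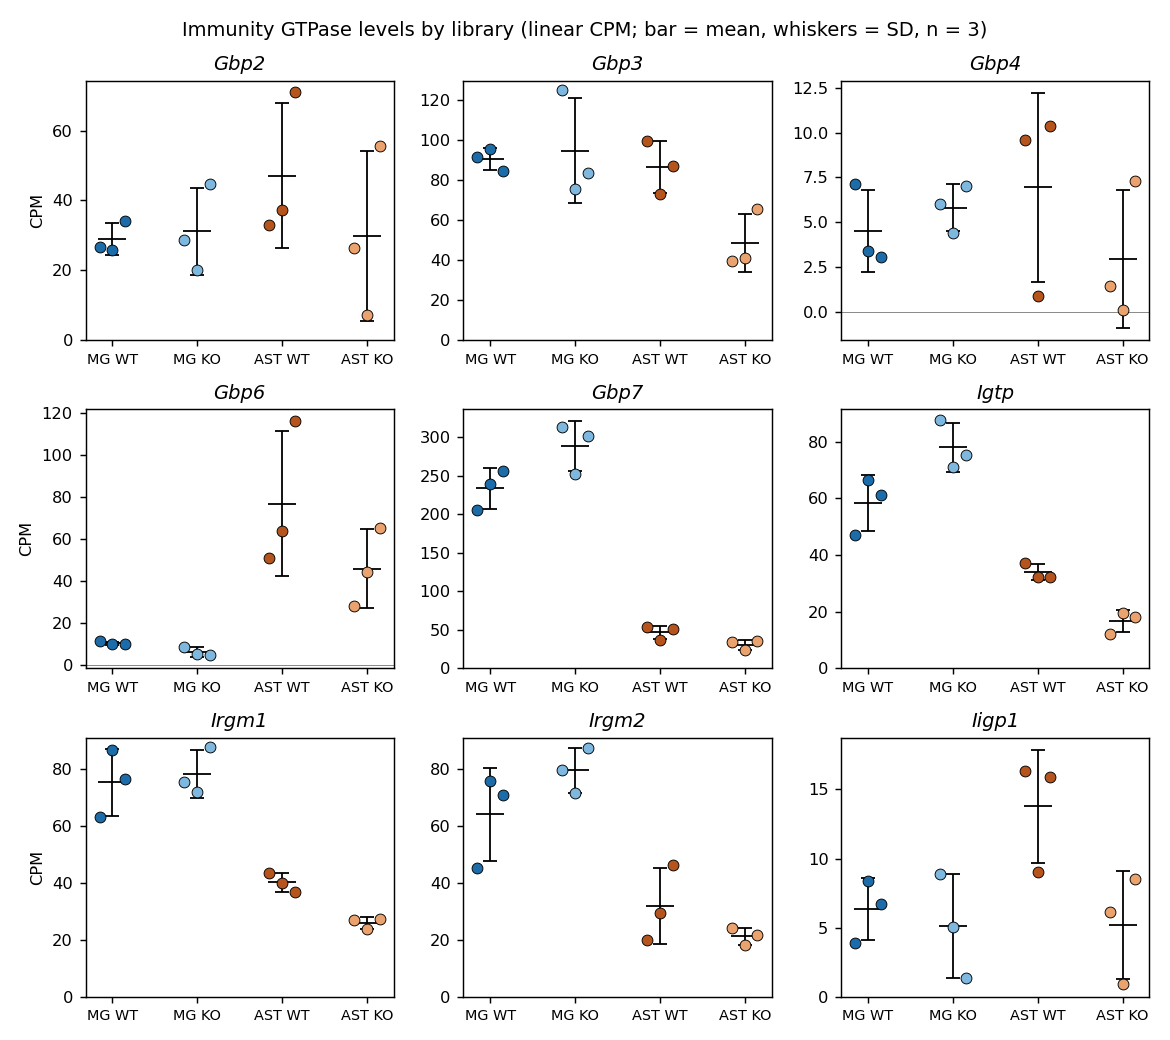
CPM of each member (vertical axis, linear) in the 3 libraries of each group; points are libraries, the wide bar is the mean and whiskers the SD. Gbp7 sits between 205 and 313 CPM in microglia and between 23.3 and 53.1 CPM in astrocytes, and Gbp6 between 4.61 and 11.1 CPM in microglia and between 27.9 and 116 CPM in astrocytes.

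Both cell types expressed all 9 GTPases, at levels that differed for some. Averaged over both genotypes, Gbp7, Igtp, Irgm2 and Irgm1 were higher in microglia and Gbp6 was higher in astrocytes, 5 of 9 members at an edgeR adjusted p under 0.05. Differences of this kind were common among all genes: 64.6% of 17294 genes tested were called, 28.2% higher in microglia and 36.4% higher in astrocytes, so the share of members called was no larger than the background. The median log2 fold change of all genes, microglia minus astrocytes, was -0.19 with TMM factors and 0.09 on library totals. In such sorted populations, fewer cells carrying a transcript and less RNA per cell cannot be told apart.

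Gbp7, a GBP that acts on pathogen vacuoles, was at 205, 239 and 257 CPM in WT and 313, 252 and 301 CPM in KO microglia. In astrocytes it was at 53.1, 36.7 and 50.5 CPM in WT and 33.6, 23.3 and 35.0 CPM in KO. Every microglia library was above every astrocyte library, by 2.51 log2 units (SE 0.14, edgeR adjusted p 1.4e-09) or 5.68-fold. Gbp6 went the other way. It was at 11.1, 9.87 and 9.66 CPM in WT and 8.62, 4.94 and 4.61 CPM in KO microglia, against 51.0, 63.6 and 116 CPM in WT and 27.9, 44.1 and 65.4 CPM in KO astrocytes. The cell types did not overlap, and Gbp6 was 9.18-fold higher in astrocytes (log2 fold change microglia minus astrocytes -3.20, SE 0.28, edgeR adjusted p 1.37e-07). Of the 75-base stretches in annotated Gbp6 transcripts, 67.3% also occur in another gene, mainly the gene model Gm43302, and the Gbp6 estimate was not a whole number in 7 of 12 libraries, so its level depends on how such reads were divided.

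Among the regulatory IRGs, Irgm1, which acts on mitochondria, lysosomes and autophagy, was at 63.2, 86.8 and 76.6 CPM in WT and 75.5, 72.0 and 87.9 CPM in KO microglia. In astrocytes it was at 43.5, 40.2 and 37.0 CPM in WT and 27.0, 23.7 and 27.4 CPM in KO. All microglia libraries were above all astrocyte libraries, and the log2 fold change was 0.96 (SE 0.14, edgeR adjusted p 3.81e-05). Igtp, also called Irgm3, which resides on the endoplasmic reticulum and lipid droplets, was at 47.2, 66.4 and 61.3 CPM in WT and 87.6, 70.9 and 75.5 CPM in KO microglia. Its astrocyte levels were 37.3, 32.4 and 32.3 CPM in WT and 12.2, 19.5 and 18.3 CPM in KO, below every microglia library. The log2 fold change was 1.19 (SE 0.19, edgeR adjusted p 5.78e-05), but over WT libraries alone it was 0.60 (SE 0.26, edgeR adjusted p 0.0703) and did not pass, against 1.79 (SE 0.27, edgeR adjusted p 6.41e-05) over KO libraries alone. Irgm2, a Golgi-associated regulator that restrains caspase-11 responses, was at 45.5, 75.9 and 71.1 CPM in WT and 79.7, 71.7 and 87.5 CPM in KO microglia. It was at 19.9, 29.6 and 46.2 CPM in WT and 24.1, 18.1 and 21.6 CPM in KO astrocytes, with 1 WT astrocyte library just above the lowest WT microglia library. Its log2 fold change was 1.18 (SE 0.19, edgeR adjusted p 9.31e-05). Igtp and Irgm2 share 75-base stretches (7.8% of those of Igtp), and in all 10 libraries where both estimates were not whole their sum was whole at a tolerance of 0.02. The summed counts of both genes, an alternative chosen after the data were seen, gave a log2 fold change of 1.18 (edgeR adjusted p 5.41e-06).

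The other 4 members did not pass this test. Gbp3 was at 91.6, 95.6 and 84.5 CPM in WT and 125, 75.9 and 83.7 CPM in KO microglia, and at 99.6, 73.3 and 87.0 CPM in WT and 39.8, 41.0 and 65.6 CPM in KO astrocytes. The difference between cell types was 0.23 on the log2 scale (SE 0.17, 95% interval -0.14 to 0.60, edgeR adjusted p 0.254), and the libraries overlapped. It passed on library totals without TMM factors (0.51, edgeR adjusted p 0.0230) and without KO animal 3 (0.60, edgeR adjusted p 0.0153). Gbp2, which promotes caspase-11 activation at bacterial surfaces, was at 26.7, 25.8 and 34.2 CPM in WT and 28.8, 19.9 and 44.6 CPM in KO microglia. In astrocytes it ranged from 7.17 CPM to 71.0 CPM, at 33.0, 37.2 and 71.0 CPM in WT and 26.4, 7.17 and 55.7 CPM in KO, and the log2 fold change was -0.55 (95% interval -1.29 to 0.20, edgeR adjusted p 0.182). Iigp1, the effector IRG that loads onto parasite vacuoles, was at 3.92, 8.34 and 6.69 CPM in WT and 8.91, 5.02 and 1.38 CPM in KO microglia. It was at 16.3, 9.03 and 15.9 CPM in WT and 6.12, 0.931 and 8.54 CPM in KO astrocytes, so that only the WT astrocytes stood above all microglia libraries. Its log2 fold change was -0.83 (95% interval -1.88 to 0.23, edgeR adjusted p 0.157). Gbp4 was at 7.16, 3.41 and 3.04 CPM in WT and 6.01, 4.43 and 7.02 CPM in KO microglia. In astrocytes it was at 9.57, 0.894 and 10.4 CPM in WT and 1.45, 0.0931 and 7.32 CPM in KO, where the second KO library held 1 count. No difference between cell types was detectable for it (log2 fold change -0.02, 95% interval -1.56 to 1.52, edgeR adjusted p 0.983). The intervals of Gbp2, Gbp4 and Iigp1 reach differences of more than 1 log2 unit, so these genes were not shown to be alike in both cell types.

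**Figure D3:**
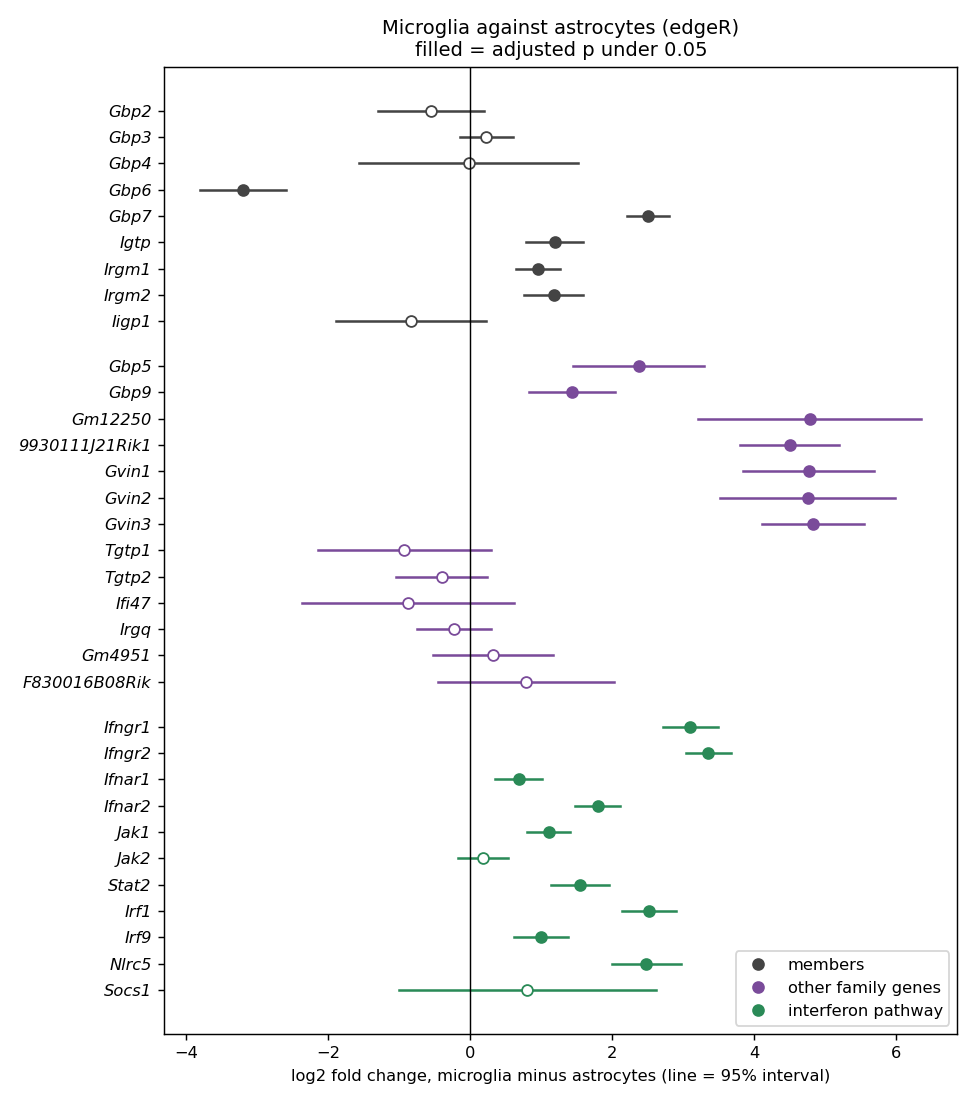
Log2 fold change of microglia over astrocytes (horizontal axis; lines are 95% intervals) for the 9 members, the other family genes tested in both cell types and 11 interferon pathway genes; filled points have an edgeR adjusted p under 0.05. Gbp7 at 2.51 and Gbp6 at -3.20 mark the ends of the member range, and all filled pathway genes lie on the microglia side.

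Of 26 further gene symbols searched for the families, which is not a count of distinct genes, 20 were in the tables. Of those, 18 had enough counts to be tested between cell types. Of these, 9 were higher in microglia and 2 in astrocytes, beside a background of 28.2% and 36.4%. Among those tested in each cell type, the giant GTPases Gvin1, Gvin2 and Gvin3 were at 109 to 406 CPM in microglia and 0 to 29.1 CPM in astrocytes, with log2 fold changes of 4.77, 4.75 and 4.83 (SE 0.43, 0.58 and 0.34). The IRG Gm12250 stood at 4.78 (SE 0.74) and 9930111J21Rik1 at 4.50 (SE 0.32). The microglial markers found in the astrocyte libraries, at 196 to 555 CPM, stand beside the low astrocyte levels of these genes, and their part in them was not tested. Gbp5, a GBP that acts on inflammasome assembly, was at 38.8 to 64.2 CPM in microglia and 1.12 to 14.8 CPM in astrocytes (log2 fold change 2.38, SE 0.43, edgeR adjusted p 0.000219). Gbp9 was higher in microglia by 1.43 log2 units (SE 0.28, edgeR adjusted p 0.000466). Tgtp1 at -0.92, Tgtp2 at -0.40, Ifi47 at -0.87, Irgq at -0.22, Gm4951 at 0.32 and F830016B08Rik at 0.79 did not pass. The genes higher in astrocytes were Gbp10 and Gbp11, which were named after their values were seen. They lie in the same gene cluster as Gbp6, but so do Gbp4, which did not differ by the test, and Gbp8 (3.20, SE 1.00) and Gbp9, which were higher in microglia. Gbp10 had 0 counts in 5 microglia libraries and was at 0.275 CPM in the sixth, and it was at 1.37, 9.03 and 11.8 CPM in WT and 3.83, 0 and 6.87 CPM in KO astrocytes. Gbp11 reached at most 1.5 CPM in any library, and its call was lost in 7 of 15 alternatives (edgeR adjusted p 0.125 with the animal as a block).

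In microglia, no member differed between KO and WT by the test. edgeR called 0 of 9 members, as did DESeq2 and limma voom, where edgeR called 0% of 14191 genes, and 0 members had an unadjusted p under 0.05, where 7.42% of all genes did. The members' median log2 fold change, KO minus WT, was 0.08, beside -0.0013 for all genes, and 2 of 9 were below 0, beside 50.1% of all genes. Igtp had all KO libraries above all WT libraries, at 78.0 ± 8.61 against 58.3 ± 9.94 CPM (SD, n = 3 each), a log2 fold change of 0.40 (SE 0.20, 95% interval -0.04 to 0.84, edgeR adjusted p 0.712). Gbp6 had all KO libraries below all WT libraries, at 6.06 ± 2.23 against 10.2 ± 0.768 CPM, a log2 fold change of -0.78 (SE 0.41, 95% interval -1.67 to 0.11, edgeR adjusted p 0.727). Among all genes, 6.53% had all KO libraries above and 6.57% all KO libraries below the WT libraries. Gbp7 was at 289 ± 32.5 CPM in KO against 234 ± 26.3 CPM in WT (log2 fold change 0.28, SE 0.18, edgeR adjusted p 0.773) and Irgm2 at 79.6 ± 7.92 against 64.2 ± 16.4 CPM (0.29, SE 0.22, edgeR adjusted p 0.811). Irgm1, Gbp3 and Gbp2 were at 0.03, 0.04 and 0.08, with SE of 0.20, 0.22 and 0.29, and the sign of each depended on the fit. Gbp4 was at 0.32 (SE 0.54) and Iigp1 at -0.33 (SE 0.62). Among Gbp2, Gbp3, Gbp7 and the 3 regulatory IRGs, the widest 95% interval was that of Gbp2, from -0.54 to 0.70. Summed choroid plexus markers were at 885 to 2217 CPM in WT and 358 to 902 CPM in KO microglia. Endothelial markers were at 35.3 to 93.1 CPM in WT and 31.8 to 39.1 CPM in KO. Border macrophage markers were at 162 to 370 CPM in WT and 221 to 345 CPM in KO. WT and KO overlapped in each list, and the part of these cells in the members' values was not tested.

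In astrocytes, every member had a lower mean CPM in KO than in WT, but none passed the test over all genes. edgeR called 0 of 9 members, where it called 0% of 15755 genes, with an adjusted p of 0.999 for each member, and DESeq2 and limma voom also called 0 members. All 9 log2 fold changes were below 0, between -1.35 and -0.46, beside 50.6% of all genes, and their median was -0.60, beside -0.01 for all genes. An unadjusted p under 0.05 with a lower KO level was found for 3 of 9 members, Gbp3, Igtp and Iigp1, beside 1.24% of all genes. In 5 of 9, Gbp3, Gbp7, Igtp, Irgm1 and Iigp1, all KO libraries lay below all WT libraries, beside 5.74% of all genes. The members' levels were correlated with one another across these 6 libraries, so these are not counts of independent genes.

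Of the regulators, Igtp was at 16.7 ± 3.96 CPM in KO against 34.0 ± 2.86 CPM in WT astrocytes (SD, n = 3 each), so that the KO mean was 49.1% of the WT mean. Its log2 fold change was -0.88 (SE 0.31, 95% interval -1.56 to -0.20, unadjusted edgeR p 0.0159). Irgm1 was at 26.0 ± 2.0 CPM in KO against 40.2 ± 3.27 CPM in WT, a log2 fold change of -0.51 (SE 0.24, 95% interval -1.04 to 0.01). Irgm2 was at 21.3 ± 3.06 against 31.9 ± 13.3 CPM, and its groups overlapped (log2 fold change -0.46, SE 0.31, 95% interval -1.13 to 0.22). For the summed counts of Igtp and Irgm2 the log2 fold change was -0.66. The effector Iigp1 was at 5.20 ± 3.89 CPM in KO against 13.8 ± 4.11 CPM in WT, a log2 fold change of -1.35 (SE 0.61, 95% interval -2.68 to -0.02, unadjusted edgeR p 0.0470).

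Among the GBPs, Gbp3 was at 48.8 ± 14.5 CPM in KO against 86.6 ± 13.2 CPM in WT astrocytes, a log2 fold change of -0.71 (SE 0.24, 95% interval -1.24 to -0.18, unadjusted edgeR p 0.0127). Gbp7 was at 30.6 ± 6.40 against 46.7 ± 8.82 CPM (log2 fold change -0.50, SE 0.24, 95% interval -1.02 to 0.01). The groups overlapped in the other 3 GBPs, with Gbp6 at 45.8 ± 18.8 against 76.9 ± 34.6 CPM, Gbp2 at 29.8 ± 24.4 against 47.1 ± 20.8 CPM and Gbp4 at 2.95 ± 3.84 against 6.95 ± 5.26 CPM. KO replicate 2, the astrocyte library with the fewest genes detected (15791) and the largest share of abundant non-coding RNA (39.5%), was the lowest astrocyte library for Gbp2, Gbp4, Gbp7, Irgm1, Irgm2 and Iigp1. Without it all 9 members were still below 0, but Gbp2 moved from -0.60 to -0.18, Gbp4 from -1.16 to -0.63 and Iigp1 from -1.35 to -0.90, while Igtp moved to -1.16. Leaving out KO replicate 3 instead moved Gbp2 to -1.39, Gbp4 to -3.08 and Iigp1 to -1.90, and without WT replicate 3 Gbp2 was at -0.24, Gbp6 at -0.25 instead of -0.60 and Irgm2 at -0.16 instead of -0.46. With each library left out in turn, Gbp6 ran from -0.86 to -0.25 and Irgm2 from -0.70 to -0.16.

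Markers of other cells were set beside these astrocyte values. Summed endothelial markers (all 8 detected) were at 142, 32.4 and 120 CPM in WT and 67.6, 42.2 and 69.9 CPM in KO astrocyte libraries. Microglial markers (all 8 detected) were at 555, 196 and 367 CPM in WT and 353, 327 and 338 CPM in KO. Oligodendrocyte markers (all 6 detected) were the largest of the lists of other cells, at 1614, 772 and 3807 CPM in WT and 1094, 816 and 1691 CPM in KO. WT replicate 2 was the lowest library in these 3 lists, and WT and KO overlapped in each. WT replicate 3 was the highest library for oligodendrocyte markers and also for Gbp2 (71.0 CPM), Gbp4 (10.4 CPM), Gbp6 (116 CPM) and Irgm2 (46.2 CPM). Pericyte markers ran from 326 to 448 CPM and choroid plexus markers from 492 to 1100 CPM, with overlapping groups. The part of any of these cells in the members' values was not tested. T and NK cell markers summed to at most 0.449 CPM and monocyte markers to at most 3.34 CPM in any astrocyte library.

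**Figure D4:**
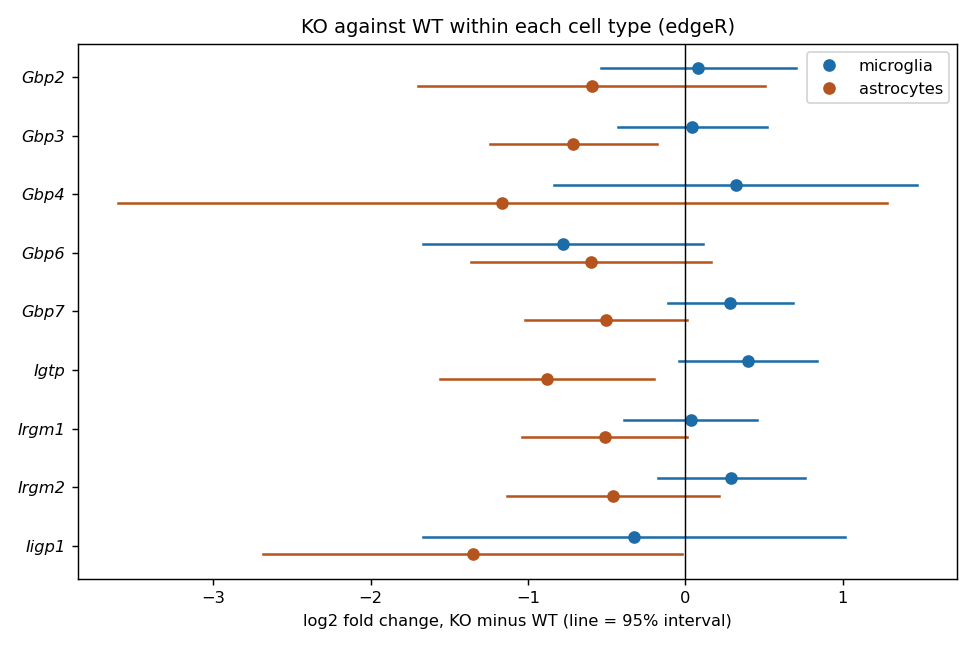
Log2 fold change of KO over WT (horizontal axis; lines are 95% intervals) for each member in microglia and in astrocytes. All 9 astrocyte values lie below 0, between -1.35 and -0.46, and the microglia values lie between -0.78 and 0.40; none has an edgeR adjusted p under 0.05.

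The difference between the KO effects in the cell types was tested as an interaction over all 12 libraries. edgeR called 0 of 9 members, where 0% of 17294 genes were called. The effect in astrocytes minus that in microglia was below 0 for 8 of 9 members, beside 39.6% of all genes, with a median of -0.67, beside 0.16 for all genes. This background depends on the fit. Over 14 alternatives the median of all genes ran from -0.08 to 0.14, below the main value, and that of the members from -1.15 to -0.60. Igtp was at -1.18 (SE 0.37, 95% interval -1.98 to -0.39, unadjusted edgeR p 0.00652, adjusted p 0.555), and Gbp7 at -0.69 (SE 0.27, 95% interval -1.27 to -0.12, unadjusted edgeR p 0.0207, adjusted p 0.709). These were the 2 of 9 members with an unadjusted p under 0.05 and a negative difference, beside 1.2% of all genes. Gbp6, which had KO means below WT means in both cell types, was at 0.29 (SE 0.52). The remaining members lay between -1.38 and -0.46 with intervals that included 0, so an unequal response of the cell types was not shown for any member after adjustment over all genes.

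The other family genes did not all have the same sign. In astrocytes 11 of 15 tested were below 0, beside 50.6% of all genes, with a median of -0.57, and 0 were called. Gm4951, an IRG, was at -1.75 (unadjusted edgeR p 0.0166), with all KO libraries below all WT libraries, as for 5.74% of all genes. Gvin1 was at 1.90 (unadjusted edgeR p 0.0224), with all KO libraries above, as for 2.39% of all genes. It was at 7.27, 0.407 and 7.86 CPM in WT astrocytes, with 5 counts in WT replicate 2, and at 25.3, 14.8 and 12.6 CPM in KO. Gvin2 had a lower KO mean, at 29.1, 3.58 and 12.7 CPM in WT and 2.55, 0 and 6.81 CPM in KO. Gvin3 had a higher KO mean (6.62 against 4.23 CPM), and the groups overlapped in Gvin2 and Gvin3. How reads were divided among the Gvin genes was not tested. In microglia 9 of 15 were below 0, beside 50.1% of all genes, with a median of -0.02. There 0 were called or had an unadjusted p under 0.05, which 7.42% of all genes had.

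Genes upstream of the GTPases were read from a list of 28 interferon pathway genes. Between cell types, 20 of 24 tested were higher in microglia and 0 were higher in astrocytes, beside 28.2% and 36.4% of all genes. Of the ligands, Ifng (interferon gamma) had 0 counts in 11 libraries, which allows up to 3 counts in each, and 4 counts in KO microglia replicate 2. Ifnb1 and Ifna2, type I interferons, reached at most 0.761 and 0.226 CPM, both in WT microglia, and Ifna4 had 0 counts in all 12 libraries. Il27, a subunit of the cytokine interleukin 27, was at 1.10 to 3.59 CPM in microglia and had 0 counts in each astrocyte library.

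The receptors of both interferon types were higher in microglia. Ifngr1 and Ifngr2, the chains of the interferon gamma receptor, were at 447 to 733 and 165 to 216 CPM in microglia, against 47.5 to 80.9 and 13.8 to 17.1 CPM in astrocytes, with log2 fold changes of 3.10 (SE 0.18) and 3.36 (SE 0.15, edgeR adjusted p 2.01e-09 and 1.92e-10). The type I receptor chains Ifnar1 and Ifnar2 were higher in microglia by 0.68 (SE 0.15) and 1.79 (SE 0.15) log2 units. Of the kinases, Jak1 was higher by 1.11 (SE 0.14), and Jak2, at 0.18 (SE 0.16, 95% interval -0.17 to 0.53, edgeR adjusted p 0.348), did not pass. Of the transcription factors, Stat2 was higher in microglia by 1.55 (SE 0.19), Irf1 by 2.52 (SE 0.18), Irf9 by 1.00 (SE 0.18) and Nlrc5, the activator of MHC class I genes, by 2.48 (SE 0.23). The feedback inhibitor Socs1 was at most 6.62 CPM in any library and did not pass (log2 fold change 0.81, SE 0.84, edgeR adjusted p 0.418).

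Between genotypes, 0 of the pathway genes were called in either cell type. In astrocytes 11 of 21 were below 0, beside 50.6% of all genes, with a median of -0.02. In microglia 9 of 24 were below 0, beside 50.1% of all genes, with a median of 0.08. In astrocytes Stat2 was at -0.55 (SE 0.32), Irf9 at -0.54 (SE 0.28), Nlrc5 at -0.36 (SE 0.42), Socs1 at -0.66 (SE 1.38), Irf1 at 0.30 (SE 0.38), Jak1 at 0.14 (SE 0.19) and Jak2 at 0.11 (SE 0.25). Ifngr1 was at 0.58 (SE 0.26, unadjusted edgeR p 0.0494), Ifnar2 at 0.60 (SE 0.25, unadjusted edgeR p 0.0360), Ifngr2 at 0.07 (SE 0.32) and Ifnar1 at -0.02 (SE 0.20), with an edgeR adjusted p of 0.999 each. In microglia the 11 pathway genes named here other than the ligands lay between -1.23 for Socs1 (SE 0.94) and 0.29 for Ifngr1 (SE 0.19).

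Of 24 genes whose products act with GBPs and IRGs in caspase activation, inflammasomes and autophagy conjugation, 13 were higher in microglia and 8 in astrocytes, beside 28.2% and 36.4% of all genes. The 6 largest differences were all higher in microglia. They were Pycard (the inflammasome adaptor ASC) at 5.51 (SE 0.46), Aim2 (a DNA sensor) at 5.34 (SE 0.48), Nlrp3 (an inflammasome sensor) at 5.31 (SE 0.39), Il1b (interleukin 1 beta) at 5.09 (SE 0.38), Gsdmd (the pore former cut by caspase-11) at 4.82 (SE 0.36) and Casp4 at 4.82 (SE 0.65) log2 units. Casp4 was at 12.2 to 28.8 CPM in microglia and 0 to 2.21 CPM in astrocytes, and Gsdmd at 75.2 to 85.0 and 0.510 to 3.55 CPM. Microglial markers in the astrocyte libraries, at 196 to 555 CPM, also stand beside the low astrocyte levels of these 6 genes. Their part in those levels was not tested. Between genotypes, 0 of these genes were called. In microglia 4 of 24 had an unadjusted p under 0.05, beside 7.42% of all genes, and are named after their values were seen. Casp1 (caspase-1) was at 10.6, 14.8 and 17.6 CPM in WT and 18.0, 24.6 and 29.1 CPM in KO (log2 fold change 0.72, SE 0.30, edgeR adjusted p 0.628). Il1b was at 0.57 (SE 0.22), Gabarap at 0.48 (SE 0.20) and Rnf213, a ubiquitin ligase, at -0.74 (SE 0.19). In each of these 4 genes, which were picked by unadjusted p, the WT and KO libraries did not overlap. Over the list, 5 of 24 did not overlap in microglia. Among all genes, 6.53% had all KO libraries above and 6.57% all KO libraries below the WT libraries. In astrocytes 1 of 22 had a lower KO level at an unadjusted p under 0.05, Rnf213, beside 1.24% of all genes. Gsdmd was at -0.02 (SE 0.18) in microglia and 0.06 (SE 1.03) in astrocytes, and Casp4 at -0.37 (SE 0.31) in microglia, with too few counts for a test in astrocytes.

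How the members varied together is given as a description over 6 libraries per cell type, which share depth and composition and hold both genotypes. The log2 CPM here use TMM factors and a prior count of 2, unlike the CPM listed above, which use library totals. The mean log2 CPM of the 9 members ran from 4.95 to 4.97 in WT and from 4.68 to 5.12 in KO microglia. In astrocytes it ran from 4.73 to 5.36 in WT and from 3.71 to 4.81 in KO. Over the 36 combinations of 2 members, r ran from 0.11 to 0.91 with a median of 0.47 in astrocytes, and from -0.61 to 0.81 with a median of 0.06 in microglia. The highest in astrocytes was Igtp with Irgm1 (0.91, against 0.11 in microglia), and the highest in microglia was Gbp7 with Igtp (0.81, against 0.67 in astrocytes). The difference between the cell types was not tested. Among 11896 genes outside the families, those whose level followed the members' mean most closely over 12 libraries, after each cell type's mean was removed, were Ube2l6 (r = 0.948), Fam72a (0.947), Btbd19 (0.933), Spns2 (0.932) and Egfl7 (0.908), where the median gene had r = 0.016. Within astrocytes alone these 5 genes were at r of 0.961 to 0.992. Within microglia alone Ube2l6 was at 0.609 and Egfl7 at 0.623, but Fam72a at 0.218, Btbd19 at -0.01 and Spns2 at -0.18, so the likeness of the last 3 rested on the astrocyte libraries. In those libraries Fam72a, Btbd19, Spns2 and Egfl7 averaged only 1.22, 1.38, 2.55 and 2.67 CPM, and Ube2l6 4.81 CPM. The 5 genes were picked as the highest r of 11896, which by itself favours high values. Ube2l6 encodes the conjugating enzyme for the interferon-induced ubiquitin-like protein ISG15, and Egfl7 is best known as an endothelial gene.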

How the data were processed

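RNA from sorted microglia and astrocytes of 6 animals was converted to full-length cDNA (SMART-Seq HT) and made into Nextera libraries, per the labels' protocols. The authors deposited RSEM's estimated counts per gene, not normalized, in 1 table per cell type, per the file headers. STAR 2.7.10b, RSEM 1.3.3, limma and build GRCm39 are named in the submitters' processing notes. Of the values, 3.44% to 5.27% per library were not whole (tolerance 0.001), and they were rounded. No molecular identifiers were stated, so counting limits cover counting error only. There were 0 columns of other samples. Libraries of a group differed by more than sampling noise (chi-square per degree of freedom 29.8 to 117).

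Genes were tested over the whole table with edgeR 4.0.16 in R 4.3.3: TMM factors, filterByExpr at a minimum count of 10, quasi-likelihood tests and Benjamini-Hochberg adjustment, called at an adjusted p under 0.05. SE is the absolute log2 fold change over the square root of F. KO was compared with WT within each cell type (6 libraries), and the cell types and the interaction were tested over 12 libraries. CPM use library totals, but the mean log2 CPM of the members and every r use TMM factors with a prior count of 2. Exon lengths are union exons of the basic GENCODE M21 annotation, used for the per kb levels only. The fitting code was tested on simulated data. Alternatives were DESeq2 1.42.0, limma voom 3.58.1, other scalings and filters, replicate and animal blocks, and each library or animal left out.

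The labels' animal numbers tie each microglia library to an astrocyte library of the same animal. After each group's mean was subtracted, the r between the 2 libraries of an animal, over 17294 genes, was 0.0168, 0.0784 and 0.0929 for WT and 0.0616, 0.0022 and 0.0551 for KO.

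All 9 members were named in every comparison. Other family genes were named where tested in each cell type, 13 pathway genes were to be named, of which 1 is not reported here (4 further ligands were named after their values were seen), and of the effector partners up to 6 with the largest called difference, or otherwise Casp4 and Gsdmd. The genes most like the members were the 5 with the highest r. The members and lists were chosen with earlier results of these data known.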

Additional observations from a re-analysis of the deposited data

Results flagged for a closer look

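Igtp was marked for a closer look because the estimates of its KO effect differed between the cell types. It was higher in KO than in WT microglia in every library (47.2, 66.4 and 61.3 CPM in WT against 87.6, 70.9 and 75.5 CPM in KO) and lower in KO than in WT astrocytes in every library (37.3, 32.4 and 32.3 CPM against 12.2, 19.5 and 18.3 CPM). The effect in astrocytes minus that in microglia was -1.18 on the log2 scale (SE 0.37, unadjusted edgeR p 0.00652), but it did not pass after adjustment over all genes (edgeR adjusted p 0.555). With the animal as a block it was -1.24, and with the Igtp and Irgm2 counts summed, an alternative chosen after the data were seen, it was -0.92.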

How the results depend on the processing

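The number of members called was 0 in microglia, in astrocytes and for the interaction under each alternative run, DESeq2 and limma voom included, and 4 to 7 of 9 between cell types. Igtp lost its call with WT libraries only, and limma voom added Gbp2 and Iigp1; Gbp2 also passed with no low-count filter, and Gbp3 on library totals and without KO animal 3. All 9 astrocyte values were below 0 in each of 15 alternatives, with a median from -0.88 to -0.51. In microglia 2 to 5 of 9 were below 0. With the replicate number as a block, 0 members were called in either cell type, and the median was -0.73 in astrocytes and 0.04 in microglia; the labels do not say that numbers pair WT with KO animals, and the deviations of same-numbered libraries had r of 0.134, 0.051 and 0.197 (microglia) and -0.021, 0.049 and 0.231 (astrocytes).

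Some values near 0 changed sign. For KO against WT in microglia, Irgm1 was at -0.00249 with a minimum count of 50, Gbp2 at -0.0791 and Gbp3 at -0.0577 with limma voom, and Irgm1, Gbp2 and Gbp3 at -0.0518, -0.0048 and -0.0550 in 1 fit of all 12 libraries. Between cell types, Gbp4 was at 0.17 on library totals, 0.16 with limma voom, 0.70 with the animal as a block and 0.67 over KO only, Gbp3 at -0.10 and Gm4951 at -0.47 over WT only, and Irgq at 0.0370 on library totals and 0.0283 over KO only. With libraries or animals left out in turn, ranges that crossed 0 were -0.0804 to 0.151 for Irgm1, -0.20 to 0.19 for Gbp3, -0.25 to 0.33 for Gbp2 and -0.99 to 0.14 for Iigp1 in microglia. They were -0.36 to 0.74 for the Gbp6 interaction and, between cell types, -0.14 to 1.04 for Gbp4, -0.46 to 0.0462 for Tgtp2 and -0.39 to 0.0660 for Irgq. The cause was not tested. For Igtp the interaction ran from -1.63 to -0.92 (adjusted p 0.149 to 1.00). Depth limits Gbp4 and Iigp1, with as few as 1 and 10 counts in 1 astrocyte library.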

Other observations

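Rnf213, chosen after its values were seen, is an interferon-induced ubiquitin ligase that acts on bacterial LPS and was on the list of genes whose products act with GBPs and IRGs. It was at 1596, 1440 and 1308 CPM in WT and 932, 769 and 942 CPM in KO microglia. In astrocytes it was at 237, 178 and 265 CPM in WT and 148, 98.5 and 167 CPM in KO. In microglia and in astrocytes alike, no KO library reached the lowest WT library, as for 6.57% of genes tested in microglia and 5.74% in astrocytes. The log2 fold change was -0.74 in microglia (SE 0.19, unadjusted edgeR p 0.00148, adjusted p 0.478) and -0.61 in astrocytes (SE 0.20, unadjusted edgeR p 0.0112, adjusted p 0.999), so neither passed the test over all genes. The interaction was 0.23 (SE 0.29). In the same microglia libraries summed choroid plexus markers (all 5 detected) ran from 885 to 2217 CPM in WT and from 358 to 902 CPM in KO, and their part in the Rnf213 values was not tested.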
